A study of Mus musculus with 4 samples.

Results

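Heparan sulfate is a sulfated sugar chain carried by proteins of the cell surface and extracellular matrix, and 10 mouse genes that encode enzymes of its synthesis and sulfation are described here, of 11747 rows in the deposited table of normalized read counts. They are Ext1, Ext2, Ndst1, Ndst2, Glce, Hs2st1, Hs6st1, Hs6st2, Hs3st1 and Hs3st4. Of the 10, 9 carry their gene symbol in that table, and the remaining one, Hs3st4, has no symbol there and was found by its RefSeq accession. The set was chosen by the enzymes' roles around Hs3st4, whose log2 difference between cultures with and without doxycycline was one of the lowest in these same libraries. The differences of these genes in that comparison are therefore a description. All 10 had a row, and the filter on low row means removed no row of the table.

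The 4 libraries were made from cultures of motor neurons derived from A172LoxP mouse embryonic stem cells, engineered to carry a transcription factor gene that doxycycline, an antibiotic used as a switch, turns on. Embryoid bodies, which are floating cell aggregates, were patterned for 2 days by 1 µM purmorphamine, which activates Sonic hedgehog signalling, and 0.5 µM all-trans retinoic acid. For a further 2 to 3 days they received 2 µg/mL doxycycline (libraries 2 and 8) or vehicle (libraries 1 and 7). All 4 libraries thus carry the transgene and saw the patterning agents, and the labels do not say whether the line is 1 clone or whether replicates were grown separately. The p-values thus reflect only the spread among these 4 libraries, possibly a technical one, and with 2 libraries per group an exact permutation test of a single gene could not go below p = 0.333.

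The normalized counts summed to between 26449555 and 27047458 per library, from an estimated 22434754 to 30235763 reads. The cultures were mixed. Of 10 motor neuron markers 9 were listed, and their summed level was 6379 and 5520 normalized counts with doxycycline (libraries 2 and 8), against 15082 and 14274 without (libraries 1 and 7). All 8 neural progenitor markers were listed as well, with sums of 34464 and 38391 with doxycycline and 34028 and 35630 without. Endoderm markers (5 of 8 listed), mesoderm and mesenchyme markers (6 of 7) and pluripotency markers (5 of 6) were present, and no listed marker was at 0 in any library. Slc5a7 was the motor neuron marker with no row, as were the endoderm markers Afp, Ttr and Apoa1. In such bulk samples, fewer cells of a type and less RNA per cell cannot be told apart.

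Synthesis of the chain takes place in the Golgi, where EXT1 and EXT2, which work as a complex, add glucuronic acid and N-acetylglucosamine in turn to a short linkage sugar on the core protein. NDST enzymes then replace acetyl groups with sulfate, GLCE converts glucuronic to iduronic acid, and HS2ST1 and the HS6ST and HS3ST families place sulfate at further positions. 3-O-sulfation, the reaction of the HS3ST family, comes last and is the rarest of these marks. The pattern of sulfate decides which growth factors, morphogens and guidance proteins the chain can bind, and in the developing nervous system heparan sulfate takes part in signalling by FGFs, Sonic hedgehog and Slits.

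Hs3st4 and Hs3st1 encode enzymes of that same last step, and of the 10 genes Hs3st4 had the largest difference and Hs3st1 the widest spread between libraries, so the sequence before the transcript start is shown for both. Each sequence is the window of 250 bases before the RefSeq start on GRCm38.p6, read 5′ to 3′ on the gene's strand. The windows lie at chr7:123982578-123982827 on the plus strand for Hs3st4 and chr5:39644632-39644881 on the minus strand for Hs3st1. Capitals mark GGGCGG or its reverse complement CCGCCC, the GC box.
Hs3st4: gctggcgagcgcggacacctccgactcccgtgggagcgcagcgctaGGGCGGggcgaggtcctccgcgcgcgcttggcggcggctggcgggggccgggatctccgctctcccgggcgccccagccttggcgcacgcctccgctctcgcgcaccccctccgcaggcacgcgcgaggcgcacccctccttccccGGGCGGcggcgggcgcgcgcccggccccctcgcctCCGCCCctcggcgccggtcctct
Hs3st1: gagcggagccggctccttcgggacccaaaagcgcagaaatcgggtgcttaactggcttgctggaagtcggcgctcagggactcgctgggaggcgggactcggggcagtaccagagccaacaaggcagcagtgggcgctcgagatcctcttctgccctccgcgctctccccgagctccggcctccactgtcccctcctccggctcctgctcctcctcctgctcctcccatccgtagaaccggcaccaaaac
The Hs3st4 window held 82% G and C, more than 99.3% of 32851 such windows, against 66% for Hs3st1 and a median of 52.4%. It held 3 GC boxes, beginning 204, 58 and 23 bases before the start, and the Hs3st1 window held none. A GC box occurred in 32.7% of all windows. Neither window held TAAT or ATTA, the core of many homeodomain sites (54.9% of all windows, which includes any TAATTA), the TAATTA palindrome (4.84%), the E-box CANNTG (66.2%) or TATAAA on either strand (12.4%). A window was at hand for 8 of the 10 genes, and GC boxes were also found in those of Hs2st1, Hs6st1, Ndst2 and Glce. These matches describe letters only, and no binding was measured here.

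Of the 10 genes, Hs3st4 was far lower with doxycycline and the other 9 had small or scattered differences. In the limma fit over all 11747 rows (adjusted p under 0.05), 1 of the 10 was called, lower, beside 2.37% of all rows called in either direction and 1.79% called lower. Since the set was drawn up with this comparison in view, nothing is read from that count. The libraries with doxycycline and those without did not overlap for 2 of the 10 genes, beside 53.2% of all rows. These were Hs3st4, lower with doxycycline as were 26.5% of all rows, and Ext1, higher as were 26.7%. The median log2 difference, on the scale log2(normalized count + 1), was -0.04 over the 10 genes and -0.02 over the 9 without Hs3st4, against 0.00236 over all rows.

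**Figure D1:**
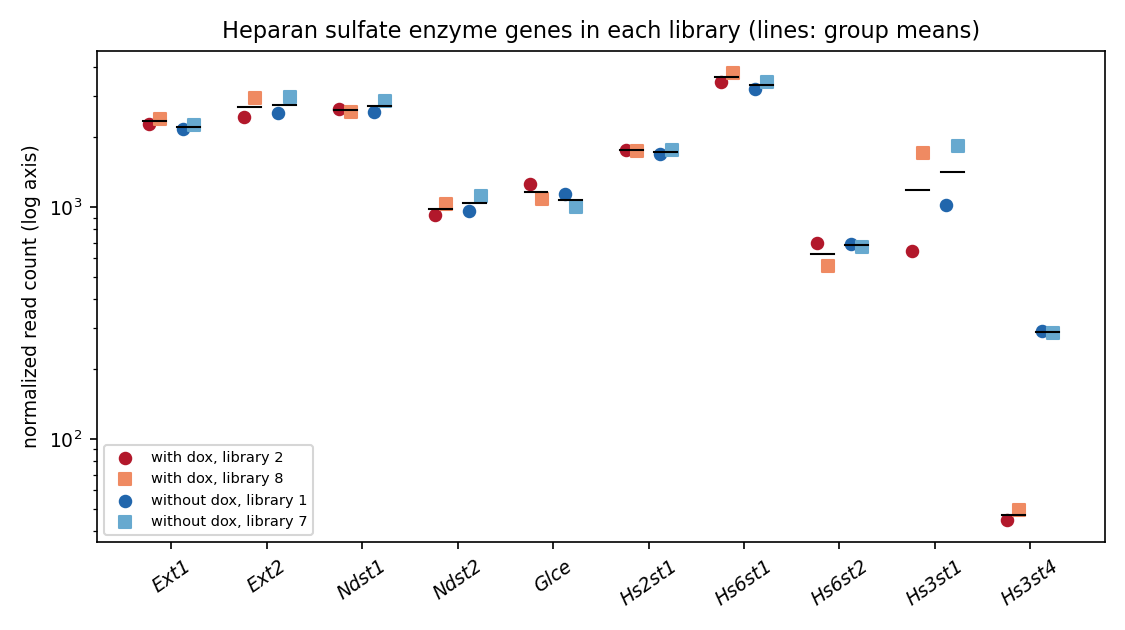
Normalized read count (log axis) of the 10 heparan sulfate enzyme genes in each library, with doxycycline (red, libraries 2 and 8) left of without (blue, libraries 1 and 7), and group means as lines. Hs3st4 sits at 44.8 and 49.4 with doxycycline and at 290.4 and 285 without, while Hs3st1 is spread within both groups.

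The chain-building genes were close to level between the groups. Ext1, a subunit of the polymerase, had 2277 and 2399 normalized counts in libraries 2 and 8 with doxycycline and 2165 and 2255 in libraries 1 and 7 without. The groups stood apart by a narrow gap, with a log2 difference of 0.08 ± 0.07 (SE) and a 95% interval from -0.09 to 0.25. Ext2, its partner subunit, had 2452 and 2962 normalized counts with doxycycline and 2529 and 2967 without. Its libraries 7 and 8 were both higher than 1 and 2, the groups overlapped, and the difference was -0.02 ± 0.12.

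The genes of N-sulfation overlapped between the groups. Ndst1, a bifunctional enzyme that removes acetyl groups and adds sulfate, had 2656 and 2577 normalized counts with doxycycline (libraries 2 and 8) and 2575 and 2865 without (1 and 7). Its 4 values overlapped between groups, with a log2 difference of -0.05 ± 0.08. Ndst2, the second listed enzyme of this kind, had 925 and 1026 normalized counts with doxycycline, against 964 and 1119 without, a difference of -0.09 ± 0.11. Ndst3 and Ndst4, the remaining genes of the family, have no row in the table. Genes with few reads are not listed there, so their absence does not show that they were silent.

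Epimerisation and 2-O-sulfation, which act in succession on the same sugar, are each encoded by 1 gene. Glce had 1252 and 1078 normalized counts in libraries 2 and 8 with doxycycline, and 1135 and 999 in libraries 1 and 7 without, with libraries 7 and 8 each lower than 1 and 2. The difference was 0.13 ± 0.11 on the log2 scale. Hs2st1 had 1767 and 1749 normalized counts with doxycycline and 1685 and 1753 without. It was the steadiest of the 10, with a difference of 0.03 ± 0.07 and a 95% interval from -0.14 to 0.21, that is from 0.908-fold to 1.15-fold.

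Of the 6-O-sulfotransferase genes, Hs6st1 was the more abundant, with 3458 and 3778 normalized counts with doxycycline and 3225 and 3472 without. The highest library without doxycycline lay just above the lowest with it, and the difference was 0.11 ± 0.08. Hs6st2 had 700.3 and 558 normalized counts with doxycycline, against 694 and 670.0 without. Here library 8 alone was low, and the difference of -0.13 ± 0.13 turned to 0.04 without that library. Hs6st3 has no row. For the 8 genes other than the 3-O-sulfotransferases, the 95% intervals reached no lower than -0.44 and no higher than 0.40 on the log2 scale, so a change of 2-fold in either direction was outside each of them.

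**Figure D2:**
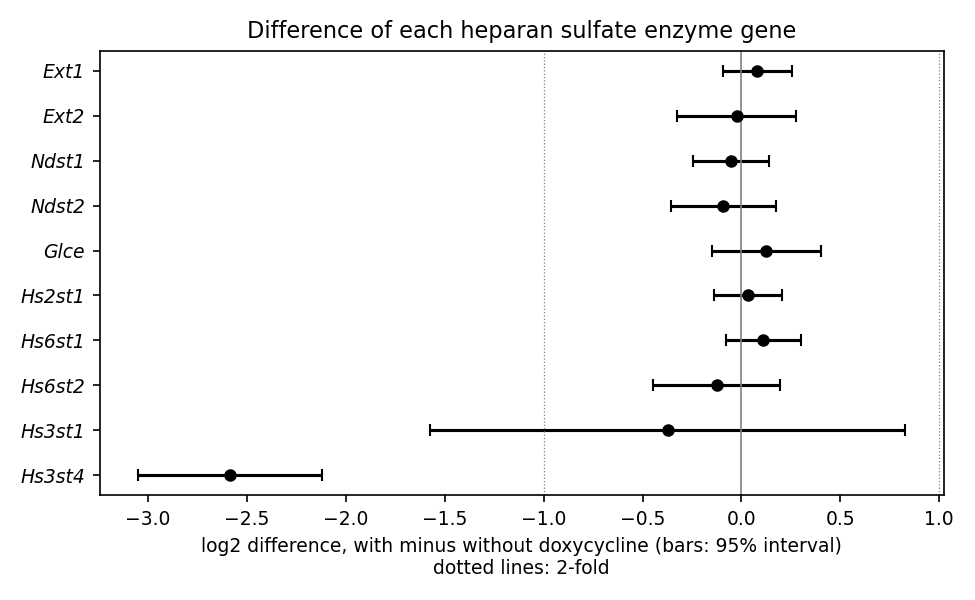
Log2 difference, with minus without doxycycline, of each of the 10 genes (points) with its 95% interval from limma (bars, 2 libraries per group), and dotted lines at 2-fold. The interval of Hs3st4 runs from -3.05 to -2.12, that of Hs3st1 from -1.57 to 0.83, and the other 8 lie close to 0.

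Hs3st4, a 3-O-sulfotransferase gene on chromosome 7 that is transcribed in neurons of the mouse brain, had 44.8 and 49.4 normalized counts with doxycycline (libraries 2 and 8), against 290.4 and 285 without (1 and 7). The replicates of each group lay close together and the groups were far apart. The means were 47.1 ± 3.25 with doxycycline and 287 ± 4.18 without (SD, n = 2 each), so that 16.4% of the level without doxycycline remained, 6.10-fold less. The log2 difference was -2.59 ± 0.19 with a 95% interval from -3.05 to -2.12, the 6th lowest of all 11747 rows. Taken by column number, library 2 against 1 gave -2.67 and library 8 against 7 gave -2.50.

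Behind these values stood an estimated 38 and 56 reads with doxycycline and 325 and 265 without. Every row of the deposited table has at least 101 estimated reads in some library, so Hs3st4 was listed only through the libraries without doxycycline. The ratio of reads per library size was 0.167, with an exact Clopper-Pearson 95% interval from 0.133 to 0.207, which covers counting error only. At a mean of 167 normalized counts Hs3st4 was the least abundant of the 10 genes, and 8.64% of all rows had a lower mean. Its exons overlap those of Gm27040, a predicted gene on the opposite strand, and no source used here states whether reads were counted by strand, so reads of the pair cannot be told apart.

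The drop in Hs3st4 was larger than that of the summed motor neuron markers, whose log2 difference was -1.31, and than that of 12 pan-neuronal markers, at -1.10. Among single motor neuron markers the lowest log2 differences were -2.60 ± 0.27 for Isl2, -2.21 ± 0.16 for Mnx1 and -1.99 ± 0.24 for Isl1. The fall of Isl2 was as large as that of Hs3st4. Slc18a3, Prph and Ret also fell further than the sum, while Chat (-1.26 ± 0.14) and Lhx4 (-0.92 ± 0.15) fell less. Per 1000 normalized counts of motor neuron markers, Hs3st4 had 7.02 and 8.95 with doxycycline (libraries 2 and 8), against 19.3 and 19.9 without (1 and 7). Per 1000 of pan-neuronal markers it had 0.547 and 0.748 with doxycycline and 1.73 and 1.91 without. In both ratios the groups stood apart. Hs3st4 was chosen for its fall in these libraries, so nothing is read from that separation or from its larger drop. Of the 9 listed motor neuron markers 8 were lower in limma with adjusted p-values from 0.00661 to 0.0455. Lhx3 was higher with doxycycline and was not called (0.55 ± 0.17). It had 1819 and 1546 normalized counts with doxycycline (libraries 2 and 8), against 1352 and 974 without (1 and 7). The motor neuron sum and the ratio built on it thus include a marker that rose. All 12 pan-neuronal markers were lower with doxycycline. In limma 11 of them were called, with adjusted p-values from 0.00832 to 0.0494, and Tubb3 was not (-0.92 ± 0.21). The part of these markers in the drop of Hs3st4 was not tested.

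Among rows with 1 named gene, those whose profile over the 4 libraries lay nearest to Hs3st4 were Rasgef1c, Prdm16, Isl2, Mnx1 and Siah3. Likeness was the Euclidean distance between log2 values centred on each row's mean, and it was 0.357 for Rasgef1c, 0.366 for Prdm16, 0.546 for Isl2, 0.564 for Mnx1 and 0.610 for Siah3. Isl2 and Mnx1 are transcription factors of motor neurons and are among the markers above. Rasgef1c, an exchange factor gene for small GTPases, had 307 and 284 normalized counts with doxycycline and 1400 and 1487 without. Prdm16, a zinc finger transcription factor gene, had 43.6 and 57.3 with doxycycline and 283 and 229.8 without. Since Hs3st4 was chosen for its fall, its nearest rows also fell by construction.

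The genes next to Hs3st4 along chromosome 7 were looked up after its value was known. Of the 4 nearest protein-coding genes on either side, 6 have a row, and none was called. On one side Zkscan2, a zinc finger gene, had a log2 difference of 0.06 ± 0.13, Aqp8 one of -0.50 ± 0.26, Lcmt1 one of -0.11 ± 0.08 and Arhgap17 one of -0.13 ± 0.14. On the other, Nsmce1 had 0.19 ± 0.07 and Il4ra 0.62 ± 0.25. Their adjusted p-values in limma ran from 0.218 to 0.845.

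Hs3st1, the 3-O-sulfotransferase known for making the antithrombin-binding site of heparan sulfate, had 644 and 1715 normalized counts with doxycycline (libraries 2 and 8) and 1015 and 1825 without (1 and 7). Libraries 7 and 8 were high and 1 and 2 low whatever the group, so the groups overlapped. The means were 1179 ± 757 with doxycycline and 1420 ± 573 without (SD, n = 2 each). The log2 difference of -0.37 ± 0.49 had a 95% interval from -1.57 to 0.83, from 0.336-fold to 1.78-fold. Within column pairs the difference was -0.66 for library 2 against 1 and -0.09 for library 8 against 7. The difference was 0.33 without library 2, -1.08 without library 8, -0.80 without library 1 and 0.05 without library 7.

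The gap between libraries of a group was larger for Hs3st1 than for the other 9 genes, 1.41 on the log2 scale for library 8 over 2 and 0.85 for library 7 over 1. The 5 listed endoderm markers were likewise higher in libraries 8 and 7, with a summed level of 8440 and 16482 with doxycycline (libraries 2 and 8) and 10360 and 17704 without (1 and 7). Their median gap was 0.98 for library 8 over 2 and 0.70 for 7 over 1. Gata4, the endoderm marker with the highest mean, had 3382 and 6476 normalized counts with doxycycline and 4460 and 7239 without. Pluripotency markers ran the other way, at 1674 and 789 summed with doxycycline and 1890 and 944 without. Of 8 neural progenitor markers, 6 were also higher in both of libraries 8 and 7 than in 2 and 1. Of 12 pan-neuronal markers 11 were lower in both, as were 6 of the 9 listed motor neuron markers. The part of any of these cell types in the Hs3st1 values was not tested. Of the 10 genes 5 were higher in both of libraries 8 and 7 than in 2 and 1, against 30.9% of all rows, and 2 were lower in both, against 34.4%.

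**Figure D3:**
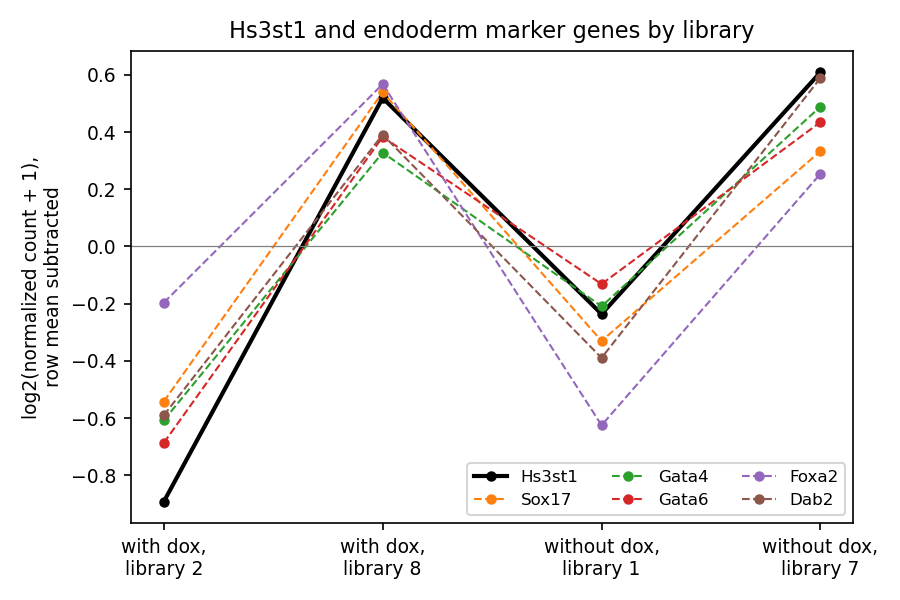
Log2(normalized count + 1) of Hs3st1 (black) and 5 endoderm markers (dashed) in each library, with each gene's mean over the 4 libraries subtracted, libraries with doxycycline on the left. Lines only join the points of a gene, and Hs3st1 and all 5 markers are higher in libraries 8 and 7 than in 2 and 1.

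Beyond Hs3st1 and Hs3st4, the table lists Hs3st3b1, Hs3st3a1 and Hs3st5 of the 3-O-sulfotransferase family, and their differences were tested in limma. None was called, and all 3 had log2 differences below 0, as did 5803 of all 11747 rows. Hs3st5, found by accession, had 107 and 117 normalized counts with doxycycline and 177 and 201 without, a log2 difference of -0.74 ± 0.18 (limma, adjusted p = 0.095). Hs3st3b1 had 788 and 892 with doxycycline and 1084 and 1088 without, a difference of -0.37 ± 0.09 (limma, adjusted p = 0.106). Hs3st5 and Hs3st3b1 were lower with doxycycline without overlap, as were 26.5% of all rows. Hs3st3a1, with 38.9 and 69.7 normalized counts with doxycycline and 63.5 and 108 without, overlapped between groups (-0.66 ± 0.42; limma, adjusted p = 0.423). At 101 estimated reads in library 7, without doxycycline, it was listed through that library alone. Hs3st2 and Hs3st6 have no row.

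Per kb of transcript, Hs3st4 made up 2.34% and 1.22% of the summed 3-O-sulfotransferase level with doxycycline (libraries 2 and 8), against 9.22% and 6.0% without (1 and 7). Hs3st1 held most of that sum, 63.6% and 80.1% with doxycycline and 61.0% and 72.9% without. Without division by length its share was 39.7% and 60.3% with doxycycline and 38.6% and 52.1% without, and Hs3st3b1 then held more than Hs3st1 in libraries 2 and 1 (48.6% and 41.2%). The sum itself was 601 and 1271 normalized counts per kb with doxycycline and 988 and 1487 without, and the groups overlapped. The share of Hs3st3b1 was 26.7% and 14.3% with doxycycline and 22.3% and 14.9% without. The share of Hs3st4 stood apart between the groups, and those of Hs3st1 and Hs3st3b1 overlapped. Because Hs3st4 was chosen for its fall, nothing is read from the separation of its share.

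**Figure D4:**
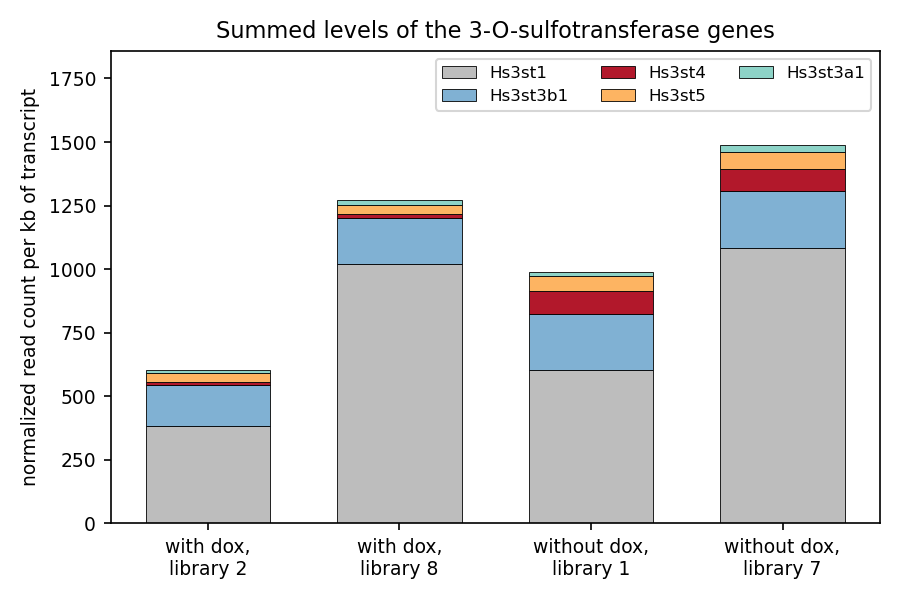
Summed normalized read count per kb of transcript of the 5 listed 3-O-sulfotransferase genes in each library, with doxycycline on the left, each gene a coloured part of the bar. Hs3st4 (red) falls to 2.34% and 1.22% of the bar with doxycycline, against 9.22% and 6.0% without, while Hs3st1 (grey) sets most of its height.

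Across the 10 genes, levels per kb of transcript had the same broad order in both groups. With doxycycline Hs6st1 stood at 973 ± 60.9 normalized counts per kb, Ext2 at 943 ± 126 and Hs3st1 at 700.3 ± 450 (SD, n = 2). Without doxycycline Ext2 stood at 957 ± 108, Hs6st1 at 900.5 ± 47.0 and Hs3st1 at 843 ± 340.1, and these 3 did not differ beyond their spread in either group. Ndst1 followed at 431 ± 9.17 with doxycycline and 448 ± 33.8 without. Ext1 (305 ± 11.3 with, 288 ± 8.25 without), Hs2st1 (285 ± 2.07 with, 278 ± 7.87 without), Ndst2 (249.7 ± 18.2 with, 267 ± 28.0 without) and Glce (252 ± 26.6 with, 231 ± 20.9 without) formed the middle. With doxycycline Ndst2 and Glce overlapped there, and without it Ext1, Hs2st1 and Ndst2 overlapped one another. Hs6st2 was lower, at 146 ± 23.2 with doxycycline and 158 ± 3.99 without, and Hs3st4 the lowest, at 14.8 ± 1.02 with doxycycline and 90.1 ± 1.31 without. Divided by coding length instead, Hs6st1 came first and Hs3st4 still last in both groups.

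Ratios within a library show how the paired isoenzymes compared. Hs6st2 had 0.203 and 0.148 normalized counts per count of Hs6st1 with doxycycline (libraries 2 and 8), and 0.215 and 0.193 without (1 and 7), which overlapped. Ndst2 had 0.348 and 0.398 per count of Ndst1 with doxycycline and 0.374 and 0.391 without, which overlapped too. Hs3st4 had 0.0696 and 0.0288 per count of Hs3st1 with doxycycline, against 0.286 and 0.156 without, and there the groups stood apart although Hs3st1 itself was scattered. Nothing is read from that separation either, since Hs3st4 was chosen for its fall.

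The rest of the pathway, together with chondroitin and dermatan sulfate genes, was read from 7 lists of 72 genes, all called pathway genes below. Of the 72, 57 have a row, 13 of them in the chondroitin and dermatan sulfate list. The limma test was passed by 2 of the 57 (Col18a1 and Ids), 1 higher and 1 lower, beside 2.37% of all rows. The median log2 difference of the 57 was 0.01. Of 7 listed linkage and EXTL genes none was called, with a median of -0.04, and the largest difference was that of B4galt7, a galactosyltransferase of the linkage region (-0.29 ± 0.12; limma, adjusted p = 0.240). None of the 9 listed genes of sulfate donor and sugar nucleotide supply was called, with a median of 0.04. Slc26a2, a sulfate transporter, had the largest difference there (-0.27 ± 0.12; limma, adjusted p = 0.273).

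Among 13 listed core protein genes, Col18a1 alone was called, higher with doxycycline, and the median was 0.01. Col18a1, a basement membrane collagen that carries heparan sulfate, had 24604 and 22004 normalized counts with doxycycline (libraries 2 and 8) and 16228 and 14992 without (1 and 7). The groups stood apart, with a log2 difference of 0.58 ± 0.08 (limma, adjusted p = 0.0314). In limma that call was lost without library 2 (0.50, adjusted p = 0.081), without library 8 (0.66, adjusted p = 0.066) and without the intensity trend (0.58, adjusted p = 0.0905). None of the 5 listed glypicans, core proteins held by a lipid anchor, was called. Gpc1 (-0.26 ± 0.06; limma, adjusted p = 0.0911), Gpc2 (-0.36 ± 0.11; adjusted p = 0.155) and Gpc3 (-0.43 ± 0.10; adjusted p = 0.101) were lower in both libraries with doxycycline than in either without. Gpc2 was called in limma without library 7 (-0.52, adjusted p = 0.0246). Gpc4 (-0.00385 ± 0.22) and Gpc6 (0.15 ± 0.18) overlapped between groups. Sdc2 (0.45 ± 0.15; limma, adjusted p = 0.175) and Sdc3 (0.17 ± 0.10; adjusted p = 0.375) were higher in both libraries with doxycycline than in either without. In all, 4 of the 13 core protein genes were lower without overlap and 3 were higher, beside 26.5% and 26.7% of all rows. Summed mesoderm and mesenchyme markers were at 4164 and 3356 normalized counts with doxycycline and 3786 and 3293 without, and their groups overlapped, as did those of the endoderm markers. Single mesoderm and mesenchyme markers went both ways. Of the 6, 3 were higher without overlap (Col1a1, Col1a2 and Pdgfrb) and 1 was lower (Kdr).

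Of the 3 listed genes that trim the finished chain none was called, and all 3 had values above 0, as did 5944 of all 11747 rows. Hpse, the heparanase, had 105 and 95.3 normalized counts with doxycycline and 57.2 and 54.8 without. Its log2 difference was 0.83 ± 0.24 (limma, adjusted p = 0.138), which passed without the intensity trend (limma, adjusted p = 0.0471). Only its 108 estimated reads in library 8, with doxycycline, reached the 101 that every row has in some library. Of the 9 lysosomal degradation genes Ids alone was called, lower with doxycycline, and the median was 0.06. Arsg (0.61 ± 0.19; limma, adjusted p = 0.157) and Idua (0.35 ± 0.14; limma, adjusted p = 0.228) were higher in both libraries with doxycycline than in either without, as were 26.7% of all rows. Neither was called. Ids, the iduronate sulfatase that removes 2-O-sulfate in the lysosome, had 1233 and 1128 normalized counts with doxycycline and 2038 and 1729 without. Its log2 difference was -0.67 ± 0.11 (limma, adjusted p = 0.0444), and the call was lost without library 1, 2 or 8 (-0.55 to -0.73; limma, adjusted p from 0.0865 to 0.183) and without the intensity trend (-0.67; limma, adjusted p = 0.0934). Neuronal markers, given above, were lower in the same libraries, and their part in the fall of Ids was not tested. In the chondroitin and dermatan sulfate list, which shares the linkage region with heparan sulfate, none of 13 listed genes was called and the median was 0.00408. Chsy3, a chondroitin synthase, had the largest difference there (-0.51 ± 0.22; limma, adjusted p = 0.268).

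**Figure D5:**
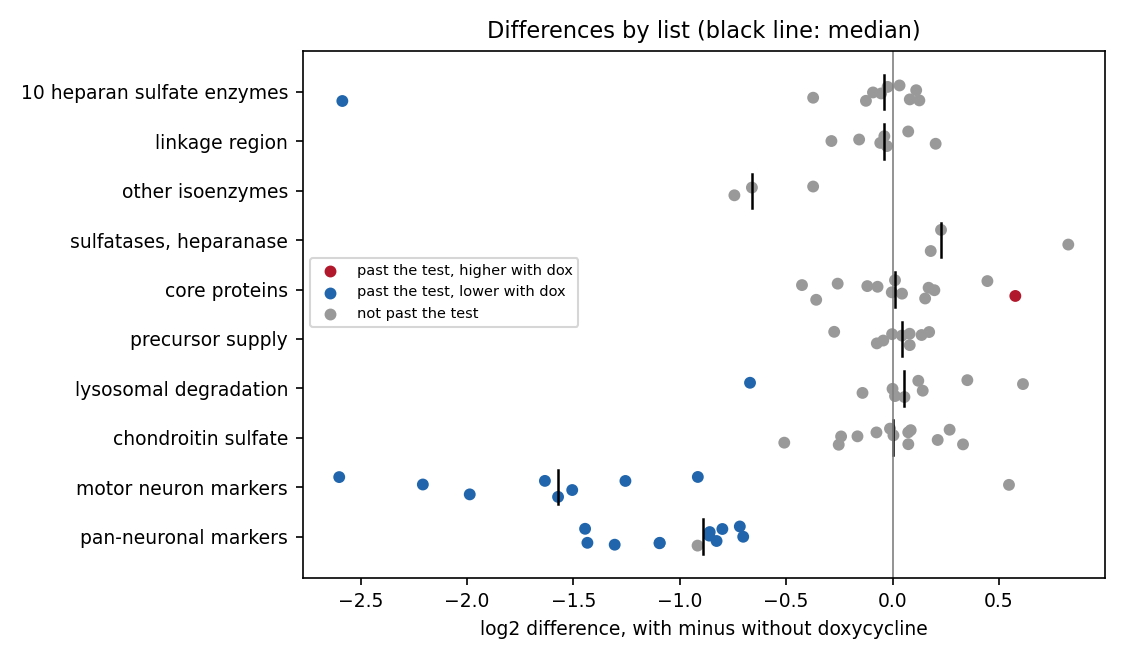
Log2 difference, with minus without doxycycline, of each listed gene (points) in the 10 heparan sulfate enzymes, 7 lists of related genes and 2 marker lists, with the median as a black line and colour for genes past the limma test. Hs3st4 at -2.59 lies among the lowest motor neuron markers, and of the 57 related genes Col18a1 and Ids are past the test.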

How the data were processed

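RNA was sequenced on an Illumina HiSeq from TruSeq libraries, per the labels' protocols. Build mm9 and the tools CASAVA, TopHat2, HTSeq and DESeq stand in the submitters' processing notes, without roles or versions. The values in the deposited table are a signal, namely read counts per gene that the authors appear to have scaled by 1 factor per library. Below 2500 normalized counts, all values lay within 0.1 of a whole multiple of 1 step per library (1.18, 0.882, 0.894 and 1.07 in libraries 2, 8, 1 and 7), read as 1 read, so read numbers are estimates and no count model was fitted. No row has fewer than 101 estimated reads in all libraries. Columns show the group but not the labels' replicate number. Chi-square per degree of freedom between libraries of a group was 28.3 with and 26.4 without doxycycline, so none was a duplicate.

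The scale was log2(normalized count + 1), fitted with limma 3.58.1 in R 4.3.3, with an intensity trend, two-sided and Benjamini-Hochberg adjusted over 11747 rows, at 0.05, with 2 residual and 3.83 prior degrees of freedom. At an unadjusted p under 0.05, 2474 rows differed. The planned row mean of at least 10 removed none. Beforehand, this fit was run on simulated counts to check that set differences were recovered. The simulated libraries varied independently, so that check does not cover deviations shared between libraries, such as those of 1 and 2. Members and lists were chosen with earlier results of these data known. Named genes are all members, genes of each pathway list past the test or else the largest difference in it, the 5 rows nearest to Hs3st4, and top markers. Other genes named, such as neighbours, 3-O-sulfotransferases and single motor neuron markers, were chosen after values were seen. Transcript and coding lengths came from GENCODE M21 and promoter windows from RefSeq on GRCm38.p6, with no other coordinates used since the files' build is mm9. Tables and plots used Python 3.11.15, pandas 2.3.3, numpy 2.4.6, scipy 1.17.1 and matplotlib 3.10.9.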

Additional observations from a re-analysis of the deposited data

How the results depend on the processing

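Hs3st4 stayed between -2.66 and -2.49 on the log2 scale under all 13 alternatives and was called each time. The members called numbered 1 throughout, except 2 (Hs3st4 and Hs3st1) with a replicate block by column number. Columns do not carry the labels' replicate numbers, so that block rests on column names alone. Deviations of libraries 1 and 2 correlated at 0.63, and the block left 1 residual degree of freedom and an infinite prior, with 3508 rows called (1636 higher, 1872 lower), 19 of them pathway genes. All rows called numbered 419 (132 higher) with robust empirical Bayes and 105 (27 higher, 78 lower) without the trend. In that last fit 1 pathway gene, Hpse, was past the test (0.83; limma, adjusted p = 0.0471), and the calls of Col18a1 and Ids were lost. Leaving out 1 library at a time gave 44 to 494 rows called, 2 to 156 higher and 42 to 338 lower, 0 to 3 pathway genes, and 1 member each time. Such fits hold 1 library in 1 group, which is assumed to vary like the others. Over these fits Hs3st1 ran from -1.08 to 0.33, Hs6st2 from -0.288 to 0.0380 and Ndst1 from -0.131 to 0.0232. Ndst2 ran from -0.199 to 0.0150 and Ext2 from -0.16 to 0.11. The direction of these genes in such fits thus changed with the library left out, which also unbalances the column pairs. Within both column pairs the differences of Hs3st1, Ndst2 (-0.059 and -0.125) and Ext2 (-0.045 and -0.002) were negative. Those of Hs6st2 (0.012 and -0.263) and Ndst1 (0.045 and -0.152) changed sign between pairs. Ext2 was 0.00994 with quantile normalization. No other direction among the 10 genes changed under the alternatives run. For Hs3st4, 38 and 56 estimated reads with doxycycline limit the precision of its remaining level.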
